A study of Arabidopsis thaliana with 24 samples.

Results

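The genes described here are 50 nuclear genes of Arabidopsis thaliana whose proteins build the light reactions of photosynthesis, among 18240 genes in the deposited table. They were taken by their gene identifiers, and all 50 were in the table: 6 encode antenna proteins of photosystem I (LHCA), 14 encode antenna proteins of photosystem II (LHCB), 12 encode subunits of photosystem I (PSA), 11 encode subunits of photosystem II (PSB), and 7 encode proteins of electron transport and of the plastid ATP synthase. The plants were wild-type Columbia-0 seedlings, 7 d old, raised on sucrose medium in 16 h of light and 8 h of dark at 21 °C. They were moved into water for 1 h, or into 30% (w/v) polyethylene glycol 8000 (PEG), with a water potential of -2.0 MPa, for 1, 2 or 3 h. PEG of this size stays outside cells and draws water from them, which makes it a model of drought. Roots and shoots were cut apart afterwards, so each organ has 1 water group and 3 PEG groups, each of 3 biological replicates, and each replicate is a pool of 30 to 50 seedlings. No water group exists for 2 or 3 h, where PEG and time spent in solution cannot be told apart. The comparisons of PEG with water share the same 3 water libraries in each organ.

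In the thylakoid membrane of the chloroplast, antenna proteins hold chlorophyll and pass the energy of absorbed light to the reaction centres of photosystem II and photosystem I. Photosystem II takes electrons from water, the cytochrome b6f complex and plastocyanin carry them to photosystem I, and ferredoxin and its reductase hand them on to make NADPH, while the ATP synthase uses the proton gradient. The core proteins that bind the reaction centres are made in the plastid, whereas the antenna and most small or peripheral subunits are encoded in the nucleus and imported. Nuclear genes of this set are known as among the most strongly transcribed in green tissue and as responsive to light, sugar, the circadian clock and signals from the chloroplast.

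Each library is a count of transcripts from their 3′ ends (MARS-seq). Totals ran from 343397 to 4009409 counts over the 12 shoot libraries and from 1332586 to 5495746 over the 12 root libraries. The library with 343397 counts, PEG 2 h replicate 2 of the shoot, stood apart: its next neighbour had 2519830 counts, and transcripts of the plastid and mitochondrial genomes made 0.149% of its counts against 0.882% to 1.13% in the other shoot libraries. Of each shoot library the 50 genes took 18.9% to 24.4% of the counts, and of each root library 0.184% to 0.335%. In water, all 50 were called lower in root than in shoot (called means an adjusted p under 0.05 after Benjamini-Hochberg adjustment over all genes tested, by the quasi-likelihood test of edgeR), where 47.6% of 15472 genes were called lower. The median log2 difference was -6.95, which is a fold of 0.00806. LHCA6 had no count in the 3 root water libraries and was at least 234-fold lower there, with the floor set at 3 counts over the group, and PSAH2, PSAN and FNR2 had 1 to 3 counts in all; with LHCA6 at its bound the median was again -6.95. Libraries carry a code whose digit, 4 to 6, follows the groups in part: in shoot it is 4 in water, PEG 1 h and 2 of the PEG 2 h libraries and 5 in the others, and in root it is 5 in water and 1 PEG 1 h library and 6 in the others. What it marks is not known here. Within an organ the digit varies inside 1 group alone, PEG 2 h in shoot and PEG 1 h in root. A term for the digit therefore rests on the 3 libraries of that group and can hardly be parted from PEG.

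In shoots more of the genes were called against water at 3 h than at 1 or 2 h, all of them as falls. Tests between the PEG times, given below, called few. After 1 h none of the 50 was called by edgeR or by DESeq2, against 5.32% of the 13769 genes tested by edgeR, 2 had an unadjusted p under 0.05, and their median log2 fold change was -0.02. After 2 h 4 of the 50 fell, where 5.65% of all genes were called lower: PSAD1, PSAD2, PSBS and PETE1. Without water replicate 1 none was called at 2 h, without water replicate 3 1 fell, and without PEG 2 h replicate 2 none fell. After 3 h 17 of the 50 fell and none rose, where 11.5% of all genes were called lower and 14.5% higher. Their median log2 fold change at 3 h was -0.33, a fold of 0.798, while the median of all genes was 0.01. The 3 PEG 3 h libraries lay below all 3 water libraries for 38 of the 50 genes, an arrangement found for 20.8% of all genes tested. Only LHCB1.1 lay above in all 3, as 22.8% of all genes did. As a share of all shoot counts, the 50 genes made 23.0%, 22.8% and 23.7% in the water libraries and 20.7%, 18.9% and 19.5% in those of PEG 3 h, with no overlap. The group means were 23.2% ± 0.473 in water, 23.0% ± 0.862 at 1 h, 23.2% ± 1.25 at 2 h and 19.7% ± 0.917 at 3 h (SD, n = 3). In such bulk samples fewer green cells and less RNA of these genes per cell cannot be told apart.

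The calls at 3 h, where 11.5% of all genes were called lower, were spread unevenly over the subgroups. Of the 12 photosystem I subunit genes 8 fell, with a median log2 fold change of -0.44 over the 12, and 4 of the 11 photosystem II subunit genes, with a median of -0.36. In electron transport and the ATP synthase 3 of 7 fell, with a median of -0.32. Fewest were called in the antenna: 1 of 6 LHCA genes (median -0.30) and 1 of 14 LHCB genes (median -0.24) fell. Whether the subgroups differ was not tested. The number of genes called depends on single libraries: leaving out water replicate 1 gave 10 at 3 h, water replicate 3 gave 9, PEG 3 h replicate 1 gave 10 and PEG 3 h replicate 2 gave 7, while leaving out the shallow PEG 2 h library gave 27. PSAH2, PSBQ2 and PSBS were called at 3 h under each of the 16 alternatives that were run. When the digit of the library code was a term in the fit 9 fell, 1 of them an antenna gene, 2 PSA and 5 PSB genes. In that fit the median log2 fold change was -0.46 for LHCA, -0.33 for LHCB, -0.49 for PSA and -0.64 for PSB genes. The term rests on the PEG 2 h libraries, the shallow one among them. LHCA3, LHCB4.2, PSAO and FNR1 at 3 h each lost the call under 9 of the 16 alternatives, as PSBS did at 2 h.

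**Figure D1:**
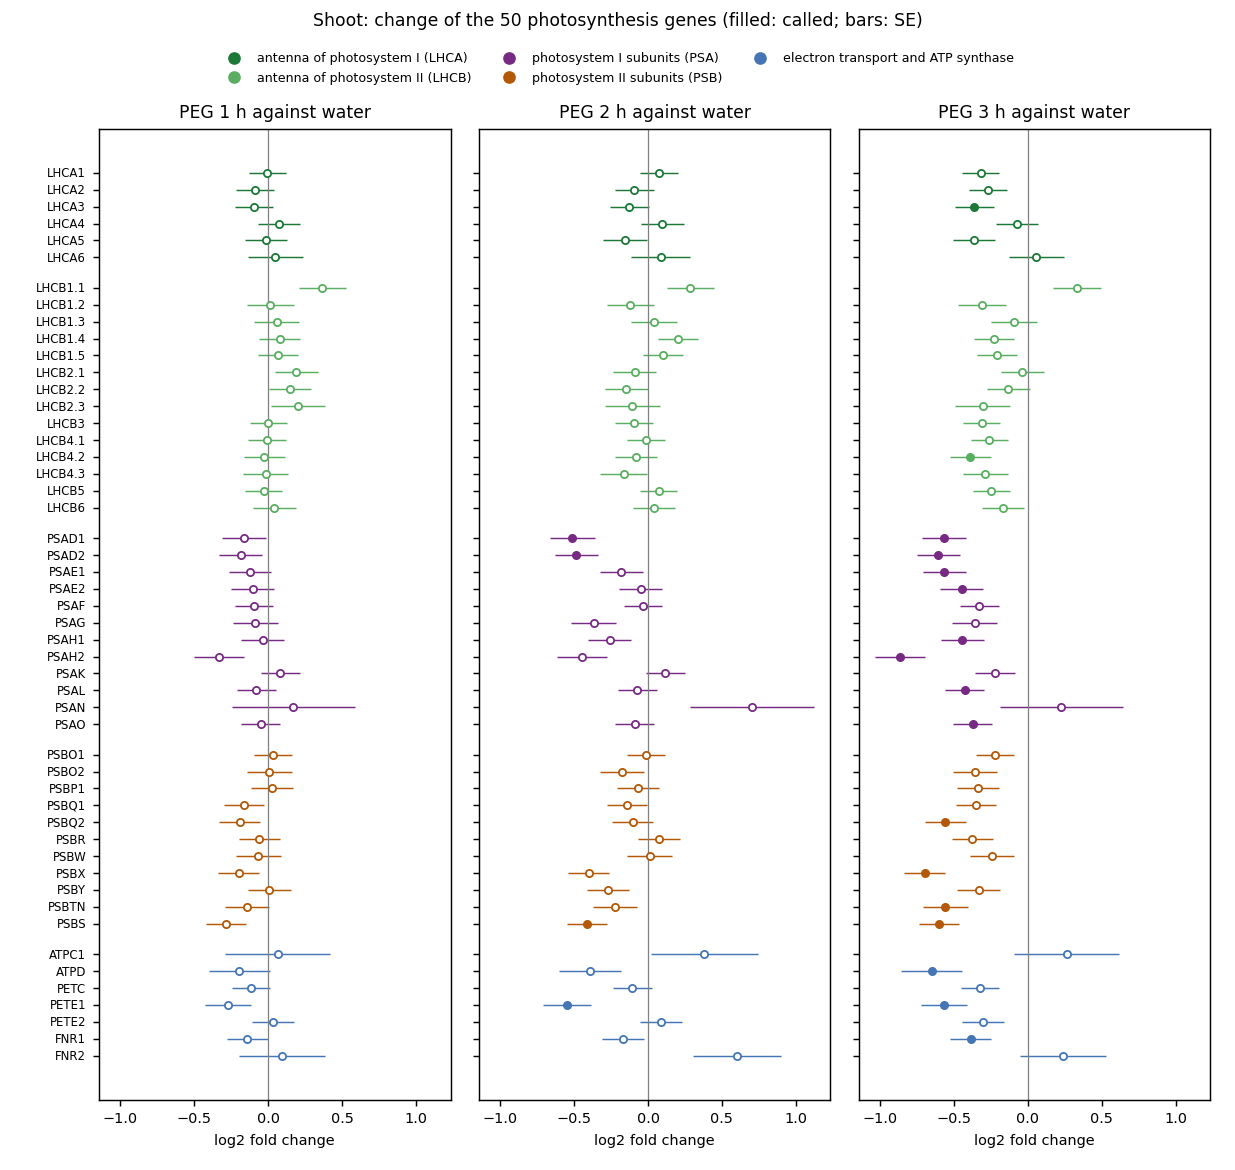
Log2 fold change (horizontal axis) of each of the 50 genes in shoots after 1, 2 and 3 h in PEG against water for 1 h, grouped by complex, with bars of 1 standard error and filled points for genes called. The points shift to the left at 3 h, where 17 are filled, 8 of them photosystem I subunits, and LHCB1.1 stays on the right at 0.33.

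Levels are given in CPM, the count of a gene relative to the scaled total of its library, for replicates 1, 2 and 3 in turn. Among photosystem I subunits, only the 2 genes for PSAD, the stromal subunit where ferredoxin docks, were called at 2 h. Without the shallow library, PEG 2 h replicate 2, neither was called at 2 h. Whether they fell before the other genes was not tested. PSAD1 (AT4G02770) was at 5094, 4550 and 4185 CPM in the water libraries, 3987, 4810 and 3548 CPM at 1 h, 3681, 2774 and 3216 CPM at 2 h, and 3260, 2699 and 3369 CPM at 3 h. PSAD2 (AT1G03130) was at 1862, 1912 and 1763 CPM in water, 1664, 1810 and 1390 CPM at 1 h, 1507, 1121 and 1313 CPM at 2 h, and 1287, 1111 and 1235 CPM at 3 h. For both, every library of 2 and 3 h lay below the lowest water library, and those of 1 h overlapped with water. The log2 fold change of PSAD1 was -0.51 at 2 h (SE 0.15, adjusted p = 0.027) and -0.57 at 3 h (SE 0.15, adjusted p = 0.0079). For PSAD2 it was -0.49 at 2 h (SE 0.14, adjusted p = 0.029) and -0.61 at 3 h (SE 0.14, adjusted p = 0.0035). PSAD1 kept its share of the PSAD counts, 71.3% ± 1.65 in water and 71.9% ± 1.19 at 3 h, so the pair moved in parallel. PSAD2 shares its strand with an overlapping neighbour in the RefSeq annotation, and reads of the overlap could be counted for either.

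PSAH2 (AT1G52230), 1 of a pair of genes for the subunit at which the photosystem II antenna docks, had the lowest fold change of the 50. It was at 819, 747 and 802 CPM in water, 686, 676 and 520 CPM at 1 h, 510, 461 and 749 CPM at 2 h, and 472, 391 and 435 CPM at 3 h. All libraries of 1 h and of 3 h lay below those of water, and those of 2 h were spread over both. At 3 h the log2 fold change was -0.87 (SE 0.17, adjusted p = 0.00066), at 1 h -0.33 (adjusted p = 0.32) and at 2 h -0.45 (adjusted p = 0.082). Its partner PSAH1 (AT3G16140) fell less, from 2166, 1805 and 1966 CPM in water to 1470, 1276 and 1616 CPM at 3 h, with a log2 fold change of -0.44 (SE 0.15, adjusted p = 0.028). The share of PSAH2 in the counts of the pair was 28.6% ± 0.979 in water and 23.0% ± 1.58 at 3 h (SD, n = 3), and the libraries did not overlap.

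The other photosystem I genes called at 3 h were PSAE1, PSAE2, PSAL and PSAO. PSAE is a stromal subunit beside PSAD, and PSAL and PSAO lie on the side where PSAH is bound. PSAE1 (AT4G28750) fell from 5161, 4647 and 4996 CPM in water to 3445, 2827 and 3737 CPM at 3 h, a log2 fold change of -0.56 (SE 0.14, adjusted p = 0.0058). PSAE2 (AT2G20260) was at 1549, 1339 and 1553 CPM in water and 1111, 951 and 1197 CPM at 3 h. PSAE1 made 76.9% ± 0.674 of the PSAE counts in water and 75.4% ± 0.492 at 3 h. Neither gene's 3 h libraries reached those of water. The log2 fold changes of PSAE2, PSAL and PSAO were -0.45 (adjusted p = 0.026), -0.43 (adjusted p = 0.021) and -0.37 (adjusted p = 0.039). Not called were PSAF, which docks plastocyanin (-0.33, adjusted p = 0.067), PSAG (-0.36, adjusted p = 0.088) and PSAK (-0.22, adjusted p = 0.23), both at the edge that faces the antenna; all 3 were lower in each PEG 3 h library than in any water library. PSAK (AT1G30380), which had the most counts of the 12, was at 6594, 6211 and 7037 CPM in water and 6010, 5128 and 5876 CPM at 3 h, and at 2 h 7387, 6250 and 7852 CPM. Its groups overlapped at 2 h. PSAN is described with 2 genes that varied in the same way.

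In photosystem II the 2 lowest fold changes at 3 h were those of PSBX and PSBS. PSBX (AT2G06520), a small membrane subunit, was at 4765, 4364 and 4652 CPM in water, 4017, 4483 and 3494 CPM at 1 h, 4013, 3052 and 3371 CPM at 2 h, and 2894, 2705 and 2899 CPM at 3 h. Every 2 h and 3 h library lay below water, and every 3 h library below all those of 1 and 2 h. The log2 fold change was -0.40 at 2 h (SE 0.14, adjusted p = 0.058) and -0.70 at 3 h (SE 0.14, adjusted p = 0.00076). PSBS (AT1G44575) is not a structural subunit; it senses acid in the lumen and switches the antenna to heat dissipation. It was at 2540, 2206 and 2482 CPM in water, 1961, 2121 and 1851 CPM at 1 h, 1793, 1675 and 1960 CPM at 2 h, and 1702, 1400 and 1668 CPM at 3 h. Each PEG library of each time lay below each water library. Its log2 fold change was -0.28 at 1 h (SE 0.14, adjusted p = 0.27), -0.41 at 2 h (SE 0.14, adjusted p = 0.046) and -0.60 at 3 h (SE 0.14, adjusted p = 0.0023).

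PSBTN (AT3G21055), a small subunit on the lumen side, went from 6873, 6148 and 7325 CPM in water to 4786, 4224 and 4800 CPM at 3 h (log2 fold change -0.56, SE 0.15, adjusted p = 0.009). The water-splitting side of photosystem II is covered by PSBO, PSBP and PSBQ, of which only PSBQ2 (AT4G05180) fell: it was at 1290, 1303 and 1325 CPM in water and 903, 769 and 986 CPM at 3 h (-0.56, SE 0.14, adjusted p = 0.0045). Its partner PSBQ1 was at 1452, 1299 and 1508 CPM in water and 1171, 951 and 1215 CPM at 3 h (-0.35, adjusted p = 0.061). PSBQ2 made 48.0% ± 1.83 of the counts of the pair in water and 44.3% ± 0.701 at 3 h, again without overlap. PSBO1 (AT5G66570) was at 8792, 7970 and 8557 CPM in water and 7653, 6682 and 7364 CPM at 3 h, and its partner PSBO2 (AT3G50820) at 3171, 3308 and 3371 CPM and 2723, 2375 and 2600 CPM. PSBO2 made 28.0% ± 1.43 of the counts of the pair in water and 26.2% ± 0.0779 at 3 h. PSBO1, PSBO2 and PSBP1 had log2 fold changes of -0.22 (adjusted p = 0.22), -0.36 (adjusted p = 0.083) and -0.34 (adjusted p = 0.082). PSBR (AT1G79040), which had the most counts of the 11, was at 16460, 15190 and 18070 CPM in water and 13550, 11720 and 13040 CPM at 3 h (-0.38, SE 0.14, adjusted p = 0.052), so its groups did not overlap although it just missed the threshold. For all 11 PSB genes the 3 h libraries lay below the water libraries, as they did for 20.8% of all genes tested. PSBW and PSBO1 had the smallest changes of the 11. PSBW (AT2G30570), a small membrane subunit, was at 7503, 7745 and 8479 CPM in water and 7004, 6098 and 6928 CPM at 3 h (-0.24, adjusted p = 0.24). PSBY, another, was at -0.33 (adjusted p = 0.097). PSBP1 overlaps a gene on its own strand in the RefSeq annotation.

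**Figure D2:**
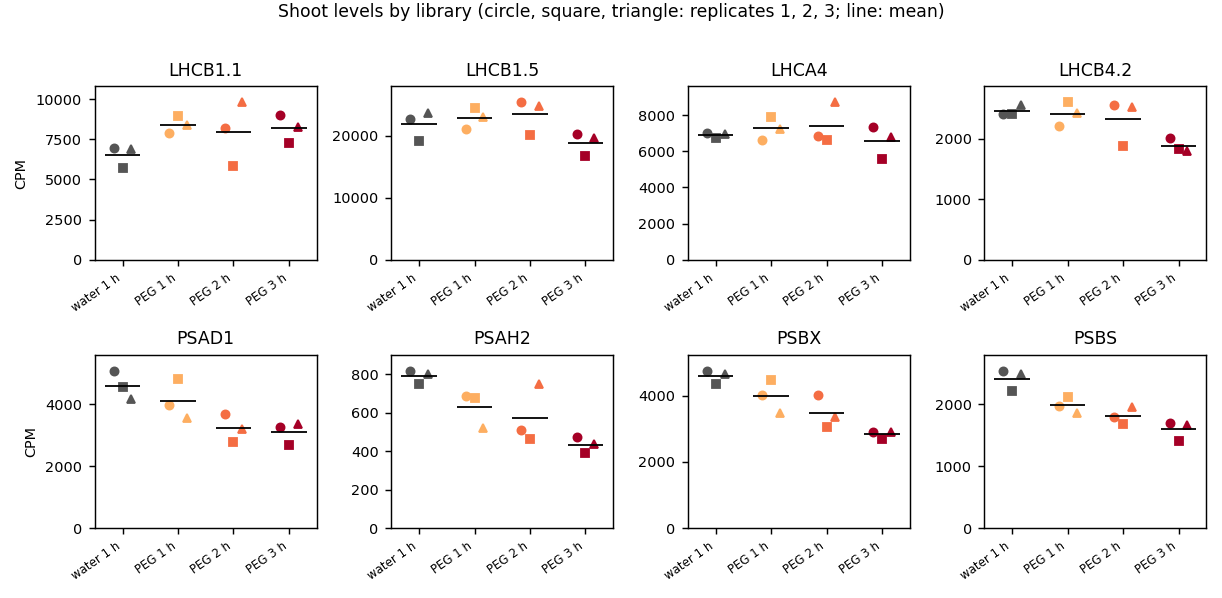
Level in CPM (vertical axis, from 0) of 8 genes in each shoot library, by group, with the mean of 3 libraries as a line. PSAD1, PSAH2, PSBX and PSBS lie lower in all 3 libraries of PEG 3 h than in water, LHCB4.2 does so at 3 h alone, LHCA4 and LHCB1.5 overlap with water, and LHCB1.1 lies higher.

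Of the 20 antenna genes 2 fell at 3 h, LHCB4.2 and LHCA3, no larger a share than the 11.5% of all genes called lower. LHCB4.2 (AT3G08940), 1 of 3 genes for the monomeric antenna protein CP29, was at 2408, 2411 and 2564 CPM in water, 2213, 2603 and 2432 CPM at 1 h, 2550, 1886 and 2532 CPM at 2 h, and 2017, 1825 and 1793 CPM at 3 h, where it fell by 0.39 on the log2 scale (SE 0.14, adjusted p = 0.044). LHCA3 (AT1G61520), part of the belt of antenna proteins on photosystem I, was at 7225, 7036 and 8020 CPM in water, 6694, 7379 and 6789 CPM at 1 h, 7322, 5951 and 7120 CPM at 2 h, and 6186, 5317 and 5834 CPM at 3 h, where it fell (-0.36, SE 0.13, adjusted p = 0.045). Both stood below water in every 3 h library. LHCB4.1 (AT5G01530), another CP29 gene, was at 5922, 5498 and 5733 CPM in water and 5052, 4363 and 4897 CPM at 3 h. LHCB4.3 (AT2G40100), with the fewest counts of the 3, was at 107, 128 and 129 CPM and 95.3, 87.9 and 115 CPM. The first was below water in every 3 h library and the second overlapped. They had log2 fold changes of -0.26 (adjusted p = 0.14) and -0.29 (adjusted p = 0.17). LHCB4.2 made 29.7% ± 0.984 of the LHCB4 counts in water and 27.9% ± 1.38 at 3 h, with overlap. LHCB5 (CP26) and LHCB6 (CP24), the further monomeric antenna proteins, were at -0.25 (adjusted p = 0.15) and -0.17 (adjusted p = 0.41). LHCA1 (AT3G54890), the LHCA gene with the most counts, was at 11250, 10450 and 11320 CPM in water and 9456, 8104 and 8890 CPM at 3 h. It had a log2 fold change of -0.32 (adjusted p = 0.068), LHCA2 one of -0.27 (adjusted p = 0.13) and LHCA5, a minor protein that ties photosystem I to the NDH complex, one of -0.36 (adjusted p = 0.066). LHCA5 (AT1G45474) was at 169, 144 and 149 CPM in water and 114, 112 and 132 CPM at 3 h, without overlap. LHCA4 (AT3G47470) was at 7021, 6755 and 6926 CPM in water and 7366, 5555 and 6776 CPM at 3 h. LHCA6, the other NDH linker, was at 51.1, 69.7 and 49.0 CPM in water and 71.8, 57.1 and 49.0 CPM at 3 h; both overlapped.

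LHCB1 and LHCB2 encode most of the trimeric antenna of photosystem II, and LHCB3 another protein of those trimers. LHCB1.5 (AT2G34420), which had the most counts of all 50, was at 22710, 19200 and 23700 CPM in water, 21100, 24430 and 23050 CPM at 1 h, 25440, 20080 and 24860 CPM at 2 h, and 20310, 16800 and 19610 CPM at 3 h, which overlapped with water (-0.21, SE 0.14, adjusted p = 0.27). LHCB3 (AT5G54270) was at 4944, 4639 and 4565 CPM in water and 4067, 3415 and 3900 CPM at 3 h (-0.31, SE 0.13, adjusted p = 0.075). LHCB2.1 was at 2256, 2114 and 2045 CPM in water and 2285, 1954 and 2014 CPM at 3 h (-0.04, adjusted p = 0.88). With the counts of the genes summed, the log2 fold change at 3 h was -0.13 for LHCB1 (SE 0.14, adjusted p = 0.53) and -0.11 for LHCB2 (SE 0.15, adjusted p = 0.61). At 1 h LHCB1.1, LHCB2.1, LHCB2.2 and LHCB2.3 lay above water in every library, as 13.1% of all genes did. None was called.

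LHCB1.1 (AT1G29920) had a positive log2 fold change at 3 h where its 4 sister genes had negative ones, none of the 5 being called. It was at 6929, 5706 and 6893 CPM in water, 7878, 8920 and 8386 CPM at 1 h, 8172, 5821 and 9806 CPM at 2 h, and 9029, 7283 and 8246 CPM at 3 h. Apart from the shallow library at 2 h, every PEG library was above every water library. The log2 fold change was 0.37 at 1 h (SE 0.16, adjusted p = 0.23), 0.29 at 2 h (SE 0.16, adjusted p = 0.25) and 0.33 at 3 h (SE 0.16, adjusted p = 0.14), so it was not called at any time. Without the shallow library it was 0.45 at 2 h (adjusted p = 0.042). LHCB1.2 (AT1G29910) was at 10120, 8466 and 10330 CPM in water and 8320, 6899 and 8087 CPM at 3 h (-0.31, adjusted p = 0.16). Within the LHCB1 counts, which needs no scaling between libraries, LHCB1.1 made 12.5%, 11.7% and 11.8% in water, 14.6%, 14.3% and 14.6% at 1 h, 13.7%, 12.6% and 14.8% at 2 h, and 16.9%, 16.4% and 16.2% at 3 h. Every PEG library thus exceeded every water library, and 3 h exceeded 1 and 2 h. The share of LHCB1.2 went from 18.2%, 17.4% and 17.7% in water to 15.6%, 15.5% and 15.8% at 3 h. LHCB1.3 held 20.4% ± 0.676 and 20.8% ± 0.275, LHCB1.4 9.61% ± 0.933 and 8.95% ± 0.437, and LHCB1.5 40.3% ± 0.806 and 38.1% ± 0.325. In the last 500 bases of the transcripts, 50-base windows of LHCB1.1 matched no other gene of the RefSeq annotation, whereas 7.5% of those of LHCB1.2 also occur in LHCB1.3 and 4.2% of those of LHCB1.4 also occur in LHCB1.5, so reads between these pairs could be split or lost.

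**Figure D3:**
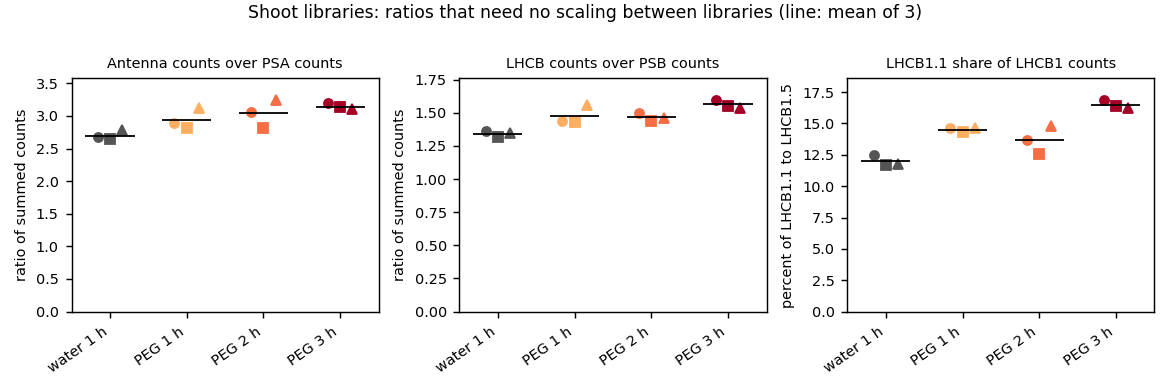
Quantities per shoot library that do not depend on scaling between libraries (vertical axes, from 0): antenna over PSA counts, LHCB over PSB counts, and the percent of LHCB1 counts that belong to LHCB1.1; lines are means of 3 libraries. In each panel all PEG 3 h libraries lie above all water libraries.

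Ratios of summed counts need no scaling between libraries. Counts of the 20 antenna genes were 2.67, 2.64 and 2.79 times those of the 12 PSA genes in water, 2.89, 2.81 and 3.12 times at 1 h, 3.06, 2.82 and 3.25 times at 2 h, and 3.2, 3.13 and 3.1 times at 3 h. Each PEG library had a higher ratio than each water library, and the PEG times overlapped. LHCB counts were 1.34 ± 0.0208 times the PSB counts in water, 1.48 ± 0.0723 times at 1 h, 1.47 ± 0.0306 times at 2 h and 1.56 ± 0.0321 times at 3 h (SD, n = 3). These ratios are carried by the genes with most counts, and no test was made on them, since they sum over chosen genes.

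In electron transport and the ATP synthase 3 genes fell at 3 h, and 2 others varied widely between replicates. ATPD (AT4G09650), the delta subunit of the plastid ATP synthase, was at 527, 583 and 577 CPM in water, 587, 482 and 405 CPM at 1 h, 448, 238 and 568 CPM at 2 h, and 363, 358 and 353 CPM at 3 h, below water in all 3 (-0.65, SE 0.21, adjusted p = 0.025). PETE1 (AT1G76100), the minor of 2 plastocyanin genes, was at 406, 392 and 370 CPM in water, 309, 367 and 289 CPM at 1 h, 304, 212 and 268 CPM at 2 h, and 310, 244 and 234 CPM at 3 h. All its PEG libraries lay below those of water, with a log2 fold change of -0.55 at 2 h (SE 0.16, adjusted p = 0.027) and -0.57 at 3 h (SE 0.16, adjusted p = 0.011). PETE2 (AT1G20340), which holds 96.5% ± 0.44 of the plastocyanin counts in water, was at 11470, 9565 and 11710 CPM in water and 9423, 7807 and 9323 CPM at 3 h (-0.30, adjusted p = 0.12). FNR1 (AT5G66190), a ferredoxin-NADP+ reductase, was at 632, 680 and 682 CPM in water and 540, 463 and 520 CPM at 3 h, without overlap, and fell by 0.39 on the log2 scale at 3 h (SE 0.14, adjusted p = 0.046), and PETC, the Rieske protein of cytochrome b6f, was at -0.32 (adjusted p = 0.073).

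PSAN, ATPC1 and FNR2, which encode a lumenal subunit of photosystem I, the gamma subunit of the ATP synthase and the second reductase, varied widely between the replicates of a group. PSAN (AT5G64040) was at 170, 443 and 393 CPM in water, 490, 270 and 372 CPM at 1 h, 539, 339 and 735 CPM at 2 h, and 434, 495 and 248 CPM at 3 h. ATPC1 (AT4G04640) was at 115, 260 and 213 CPM in water, 272, 142 and 202 CPM at 1 h, 301, 186 and 261 CPM at 2 h, and 243, 318 and 145 CPM at 3 h. FNR2 (AT1G20020) was at 96.2, 176 and 114 CPM in water, 155, 86.4 and 172 CPM at 1 h, 190, 238 and 170 CPM at 2 h, and 162, 192 and 102 CPM at 3 h. Water replicate 1, PEG 1 h replicate 2 and PEG 3 h replicate 3 were the lowest of their groups for all 3 genes. None was called at any time, and their log2 fold changes at 3 h were 0.23, 0.26 and 0.24, with standard errors of 0.415, 0.355 and 0.291.

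Between PEG times, little passed the test. From 1 to 2 h none of the 50 genes was called by edgeR or by DESeq2, and 0% of all genes were by edgeR, although 1 of the 50 and 966 of all genes had an unadjusted p under 0.05. From 1 to 3 h PSBX fell by 0.50 on the log2 scale (SE 0.14, adjusted p = 0.047), where 1.63% of all genes were called lower; it was lost without PEG 1 h replicate 1 or 2 or without any 1 of the PEG 3 h libraries, and without PEG 1 h replicate 3 there were 4 calls. In 39 of the 50 genes all 3 h libraries lay below all 1 h libraries, compared with 11.9% of all genes, and the median log2 fold change was -0.31. From 2 to 3 h no member was called by either tool, against 0.472% of all genes by edgeR. In 17 of the 50 all 3 h libraries lay below all 2 h libraries, against 6.13% of all genes, and the median was -0.22. These comparisons reuse the PEG 3 h libraries of the comparison with water.

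In roots the 50 genes were at a small fraction of their shoot level, and 44 had enough counts to be tested. LHCA6, PSAH2, PSAN, ATPC1, PETE1 and FNR2 were not. At 1 h 3 rose (LHCA5, PSBO2 and PSBX), where 11.5% of 10941 genes were called higher. At 2 h 3 rose (PSBO2, PSBS and ATPD), where 12.7% of all genes were called higher, and at 3 h 4 rose (PSBO2, PSBX, PSBS and ATPD), where 21.1% were. None fell in this fit, although LHCB2.3 fell at 3 h by DESeq2 (-0.68, adjusted p = 0.027) and without PEG 3 h replicate 3 (-1.13, adjusted p = 4.8e-05). These counts of 44 are smaller shares than those of all genes. No member was called in root at any time once the digit of the library code was a term. That term rests on the PEG 1 h libraries, and calls over all genes also dropped with it, from 4440 to 987 at 3 h. Without water replicate 1 none was called at 1 or 2 h, without water replicate 2 1 at each of these times, and without water replicate 3 1 at 1 h and none at 2 or 3 h. Leaving out PEG 1 h replicate 2 left none at 1 h, PEG 2 h replicate 3 none that rose at 2 h, and PEG 3 h replicate 2 2 at 3 h. The median log2 fold change over the 44 was 0.17, 0.21 and 0.25 at 1, 2 and 3 h, and that of all genes was 0.03, 0.06 and 0.07.

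PSBS was at 6.27, 5.31 and 4.2 CPM in the root water libraries, 11.8, 7.89 and 5.98 CPM at 1 h, 8.30, 8.17 and 14.0 CPM at 2 h, and 9.35, 14.2 and 8.80 CPM at 3 h. All libraries of 2 and 3 h were above water, by a log2 fold change of 0.92 at 2 h (SE 0.31, adjusted p = 0.036) and 1.04 at 3 h (SE 0.30, adjusted p = 0.0097). Of all genes tested in root, 17.9%, 23.6% and 27.5% lay above water in every library at 1, 2 and 3 h. The 2 highest root levels of PSBS, 14.0 and 14.2 CPM, were in PEG 2 h replicate 3 and PEG 3 h replicate 2. PSBX was at 2.01, 3.71 and 2.1 CPM in water, 6.82, 30.1 and 12 CPM at 1 h, 9.24, 7.89 and 11.2 CPM at 2 h, and 5.22, 11 and 18.9 CPM at 3 h. Every PEG library exceeded water, which rests on 8, 14 and 9 counts, and the log2 fold change was 2.72 at 1 h (SE 0.63, adjusted p = 0.011) and 2.18 at 3 h (SE 0.62, adjusted p = 0.015). ATPD was at 6.02, 8.76 and 6.54 CPM in water and 15.7, 12.5 and 10.5 CPM at 3 h (0.86, SE 0.26, adjusted p = 0.014). PSBO2 was at 23.3, 23.4 and 16.6 CPM in water and 35, 36.7 and 24.7 CPM at 3 h (0.61, SE 0.21, adjusted p = 0.03). Both were above water in all PEG 3 h libraries. LHCA5 had 7.77, 5.31 and 8.17 CPM in water and 14.3, 12.3 and 13.7 CPM at 1 h (0.91, SE 0.27, adjusted p = 0.021), with 9.79, 8.29 and 6 CPM at 3 h, where it overlapped with water.

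Most antenna genes of photosystem II were high in 2 single root libraries, PEG 2 h replicate 3 and PEG 3 h replicate 2. These libraries were singled out for their high antenna counts. The number of antenna genes that peak in them is therefore a description, with no share over all genes beside it. LHCB1.1 was at 3.76, 7.70 and 2.80 CPM in water, 7.18, 4.38 and 9.40 CPM at 1 h, 1.51, 2.25 and 58.1 CPM at 2 h, and 6.09, 49.2 and 12.4 CPM at 3 h. Of the 14 LHCB genes 9 had their 2 highest root levels in these libraries (LHCB1.1 to LHCB1.4, LHCB2.1, LHCB2.2, LHCB3, LHCB4.2 and LHCB6); LHCB1.4 reached 29.4 and 29.6 CPM there and at most 7.69 CPM in the other 10. The other 5 (LHCB1.5, LHCB2.3, LHCB4.1, LHCB4.3 and LHCB5) did not: LHCB2.3 was at 80.2, 53.9 and 57 CPM in water, 52.6, 59.2 and 52.1 CPM at 2 h and 31.5, 26.7 and 63.1 CPM at 3 h, with its lowest root level in PEG 3 h replicate 2. LHCB4.3 was at 1.75 CPM in PEG 2 h replicate 3, and LHCB1.5 was highest in PEG 1 h replicate 3, at 701 CPM. None of the 14 was called in the fit of the 12 root libraries. With a replicate block LHCB5 was called at 3 h (1.92, adjusted p = 0.035), on 7 counts over the water libraries. In the joint fit of all 24 libraries LHCB5 (2.04, adjusted p = 0.021) and LHCB2.1 (1.71, adjusted p = 0.045) were called higher at 3 h. The log2 fold change of LHCB1.1 at 3 h was 2.28 with a standard error of 1.396 (adjusted p = 0.23). The same 2 libraries had the highest share of all 50 genes, 0.335% and 0.332% against at most 0.265% elsewhere in root. Without them no member was called at 2 h and 2 rose at 3 h. The 9 measured root marker genes summed to 775.5 to 797.2 CPM in the PEG 2 h group and 553.4 to 665.9 CPM in that of 3 h, against 1826 to 2009 CPM in water, and no marker was at 0 in all 3 libraries of a group. Their part in the result was not tested.

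**Figure D4:**
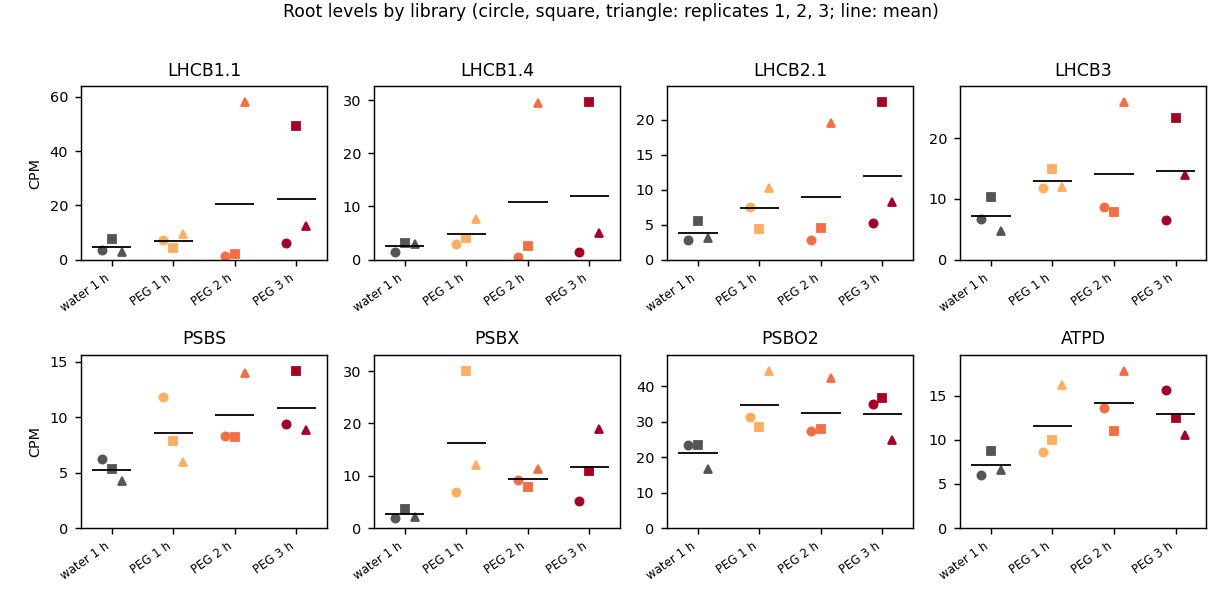
Level in CPM (vertical axis, from 0) of 8 genes in each root library, by group, with the mean of 3 libraries as a line. LHCB1.1, LHCB1.4, LHCB2.1 and LHCB3 (top) are high in replicate 3 of PEG 2 h and replicate 2 of PEG 3 h. PSBS, PSBX, PSBO2 and ATPD (bottom) lie above water in all libraries of PEG 3 h, as 27.5% of all genes tested in root do. PSBS too is highest in replicate 3 of PEG 2 h and replicate 2 of PEG 3 h.

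The response of root minus that of shoot was tested directly, each organ against its own water libraries. That difference was called for 1 gene at 1 h (PSBX), where 2.72% of 15472 genes had a higher response in root, for 4 genes at 2 h (PSAD2, PSBX, PSBS and ATPD), where 3.35% did, and for 9 at 3 h (LHCA1, LHCB5, PSAD2, PSAF, PSBO2, PSBP1, PSBX, PSBS and ATPD), where 10.1% did. In all of them the root response was the higher. The median over all genes was -0.16 at 1 h and 0.16 at 3 h and that over the 50 genes was -0.01 and 0.60. The difference for PSBS at 3 h was 1.65 (SE 0.29, adjusted p = 0.00013), and it was called at 2 and 3 h under each of the 21 alternatives run. With a term for the digit of the code, 0, 1 and 1 of the 50 genes were called at 1, 2 and 3 h. Leaving out root PEG 1 h replicate 2 gave 0 at 1 h, root water replicate 3 gave 2 at 1 h and 5 at 3 h, and root PEG 1 h replicate 1 gave 2 at 1 h. At 2 h, leaving out shoot PEG 2 h replicate 2 gave 2 and root PEG 2 h replicate 3 gave 1, and without root PEG 3 h replicate 2 there were 4 at 3 h.

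Other genes that serve the same membranes came from 10 lists with 108 genes in the table. In shoots, 3 of 7 tested genes of chlorophyll breakdown rose at 3 h, where 14.5% of all genes were called higher, and none fell. NYC1, the chlorophyll b reductase that starts the removal of the antenna, was at 72.6, 87.1 and 80.0 CPM in water, 115, 103 and 176 CPM at 1 h, 188, 204 and 112 CPM at 2 h, and 179, 214 and 243 CPM at 3 h, above water in every PEG library (1.41 at 3 h, SE 0.22, adjusted p = 9.3e-05). NYE1, which takes magnesium out of chlorophyll, and PPH, a pheophytinase, rose by 1.16 (SE 0.23, adjusted p = 0.0007) and 0.63 (SE 0.21, adjusted p = 0.03). In chlorophyll synthesis 2 of 17 fell, close to the 11.5% of all genes, and none rose: DVR, a divinyl reductase, with a log2 fold change of -0.70 (SE 0.16, adjusted p = 0.0023), and GSA1, an early aminotransferase of the pathway, with one of -0.51 (SE 0.15, adjusted p = 0.016).

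Regulators of photosynthesis genes were called from 1 h on. Of 13 tested, 5 rose at 1 h, where 4.25% of all genes were called higher, 5 at 2 h, where 8.19% were, and 8 at 3 h, where 14.5% were, when 1 fell. HY5, a light-response transcription factor, was at 11.8, 8.11 and 8.49 CPM in water, 11.6, 18.7 and 20 CPM at 1 h, 18.3, 13.2 and 17.2 CPM at 2 h, and 30.2, 25.4 and 31.2 CPM at 3 h, with overlap at 1 h alone. Its log2 fold change was 0.83 at 1 h (SE 0.24, adjusted p = 0.045) and 1.61 at 3 h (SE 0.23, adjusted p = 2.7e-05). The GATA factors CGA1 (AT4G26150) and GNC (AT5G56860), known to promote greening, rose by 1.93 (SE 0.40, adjusted p = 0.0046) and 1.18 (SE 0.17, adjusted p = 0.00013) at 1 h and by 2.34 (SE 0.39, adjusted p = 0.00014) and 1.02 (SE 0.17, adjusted p = 0.00018) at 3 h. CGA1 was at 1.68, 1.80 and 1.96 CPM in water and 9.53, 6.41 and 12.2 CPM at 3 h. All PEG libraries of GNC and CGA1 lay above water.

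Light-harvesting-like proteins bind pigment under stress or during assembly and do not form the antenna. Of 9 tested, 3 rose at 3 h and 1 fell, where 14.5% of all genes were called higher and 11.5% lower. ELIP1, an early light-induced protein, was at 5.72, 2.70 and 2.94 CPM in water and 15.1, 15.6 and 25.4 CPM at 3 h (2.32, SE 0.41, adjusted p = 0.00036), and ELIP2 rose by 0.96 (SE 0.30, adjusted p = 0.024). OHP2, needed to assemble photosystem II, fell by 0.69 on the log2 scale (SE 0.17, adjusted p = 0.0045). Among 6 sigma factors, which guide the plastid RNA polymerase, 4 rose at 3 h, where 14.5% of all genes were called higher, including SIG5 by 1.38 (SE 0.37, adjusted p = 0.0092), SIG4 by 0.84 (SE 0.22, adjusted p = 0.0075) and SIG3 by 0.77 (SE 0.24, adjusted p = 0.023).

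Of 15 genes of antenna import, state transitions and photoprotection 2 rose and 1 fell, no larger shares than the 14.5% and 11.5% of all genes. ABA1 (zeaxanthin epoxidase, 0.48, SE 0.15, adjusted p = 0.017) and NPQ1 (violaxanthin de-epoxidase, 0.55, SE 0.20, adjusted p = 0.044) rose and CURT1A, which bends thylakoids, fell (-0.46, SE 0.14, adjusted p = 0.023). In the list of 6 other thylakoid genes FD2, the main leaf ferredoxin, fell, from 3178, 2667 and 2759 CPM in water to 1956, 1772 and 2097 CPM at 3 h (-0.56, SE 0.15, adjusted p = 0.0065). None of 10 genes of photosystem II assembly and repair and none of 11 plastid-encoded partners was called at 3 h, with 1 and 0 at an unadjusted p under 0.05. The plastid-encoded values come from a library type that starts at poly(A) tails, which plastid transcripts lack in most cases. Of the 9 measured root markers 8 were called higher in root than in shoot in water, at 0 to 32.7 CPM in shoot water, whereas PYK10 was called lower in root (log2 difference -2.15, SE 0.31, adjusted p = 2.2e-06). PYK10 was at 268, 347 and 307 CPM in shoot water and 76.5, 67.7 and 40.4 CPM in root water, and so made most of the summed level of the list in shoots. In shoots 3 of the 9 could be tested at 3 h, of which the phosphate transporter gene PHT1;1 fell at 3 h (-1.33, SE 0.28, adjusted p = 0.0014). The 9 summed to 306.7 to 389.1 CPM in shoot water and 189.7 to 310.8 CPM at PEG 3 h, with none at 0 in all 3 libraries of a group. Their part in the changes of the 50 genes was not tested.

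**Figure D5:**
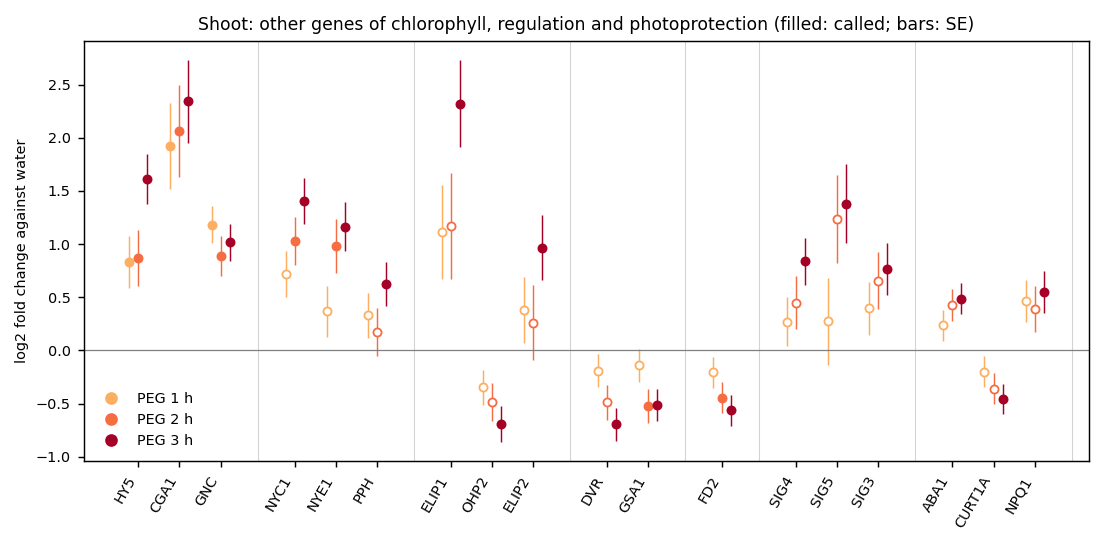
Log2 fold change against water (vertical axis) in shoots after 1, 2 and 3 h in PEG of up to 3 genes for each list that were called at 3 h with the lowest adjusted p, with bars of 1 standard error and filled points for genes called. HY5, CGA1 and GNC are called at all 3 times, ELIP1 reaches 2.32 at 3 h, and DVR, GSA1, OHP2, FD2 and CURT1A lie below 0.

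The authors' deposited table of their own comparisons holds the same direction in shoots. At an adjusted p under 0.05, 0 of the 50 genes were lower than water at 1 h, 3 at 2 h (PSAD1, PSBS and PETE1) and 15 at 3 h in the authors' deposited table, and none was higher. At 3 h these were 2 antenna (LHCA5 and LHCB5), 6 PSA, 3 PSB and 4 electron transport and ATP synthase genes, by the authors' deposited table. LHCA5, LHCB5, PSAF and PETC were called there and not here. LHCA3, LHCB4.2, PSAE1, PSAL, PSAO and PSBTN were called here and not there, so the antenna genes called differ. From 1 to 3 h the authors' deposited table has 0 of the 50 genes called, whereas PSBX was called here. In root, the authors' deposited table has 3 higher at 1 h, 3 higher at 2 h, and 5 higher and 2 lower at 3 h. By that table those of 1 h were LHCA5, LHCB5 and PSBX, and those of 2 h PSBX, PSBS and ATPD. At 3 h 5 were antenna genes (LHCB2.1, LHCB2.3, LHCB3, LHCB4.3 and LHCB5), beside PSBX and PSBS, in the authors' deposited table. PSBO2, called in root here at all 3 times, was among them at none.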

How the data were processed

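Wild-type seedlings were profiled in 24 libraries (8 groups of 3). For the MARS-seq libraries, the submitters' processing notes name HTSeq, STAR 2.4.2a, cutadapt, bcl2fastq and DESeq2; the genome build and the handling of molecular identifiers are not given in the sources used here. The authors deposited counts per gene, a normalized signal (counts over 1 size factor per library), regularized log2 values, and per comparison a log2 fold change, p-value and adjusted p-value, per the file headers. All columns of libraries were mapped by their codes. Symbols came from RefSeq (TAIR10.1), which matched 18125 of 18240 identifiers and all 50 members.

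Tests made here used the deposited counts alone, in edgeR 4.0.16 (limma 3.58.1, R 4.3.3), with DESeq2 1.42.0 as an alternative. Each organ's 12 libraries were fitted together with 4 group means, after filterByExpr and TMM scaling, by glmQLFit (robust) and glmQLFTest, a two-sided test, and Benjamini-Hochberg adjustment over all genes tested; a gene was called at an adjusted p under 0.05. All 24 libraries were fitted with 8 group means for root against shoot and for the difference between the responses. Residual degrees of freedom were 8 per organ and 16 jointly. CPM uses the TMM-scaled library sizes of the organ. Depth limits precision most in the shallow shoot library, where 3 counts are 8.74 CPM. Replicates differed by more than sampling noise (chi-square per degree of freedom 2.87 to 10.2). The fits were tested on simulated data, where genes of higher levels were changed in the first comparison of each fit. That test does not cover genes at low levels, as many members are in root, nor the other comparisons. It set no required recovery for the fit of all 24 libraries. The members and lists were chosen with earlier results of these data known. Named are, per subgroup, the 2 lowest and 2 highest changes in shoot at 3 h and the gene with the most counts, paralog pairs, the 5 lowest adjusted p in root and for the difference between organs, and up to 3 called genes per other list; members outside it are named for completeness. Alternatives were other scalings, no filter, DESeq2, other sets of libraries, a replicate block, the library code digit as a term and summed paralogs.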

Additional observations from a re-analysis of the deposited data

Results flagged for a closer look

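For 14 combinations of gene and time the response in root differed from that in shoot by the test of the difference itself (edgeR's quasi-likelihood test on all 24 libraries, adjusted over 15472 genes); each value is the root minus the shoot log2 fold change. For PSBX the difference was 2.74 at 1 h (adjusted p = 0.01), 2.15 at 2 h (adjusted p = 0.042) and 2.88 at 3 h (adjusted p = 0.0026). PSBS differed by 1.23 at 2 h (adjusted p = 0.0085) and 1.65 at 3 h (adjusted p = 0.00013), and ATPD by 1.27 (adjusted p = 0.017) and 1.51 (adjusted p = 0.0019). PSAD2 differed by 1.26 at 2 h (adjusted p = 0.024) and 1.196 at 3 h (adjusted p = 0.017). At 3 h alone, LHCA1 differed by 0.76 (adjusted p = 0.023), LHCB5 by 2.29 (adjusted p = 0.023), PSAF by 1.37 (adjusted p = 0.011), PSBO2 by 0.97 (adjusted p = 0.0065) and PSBP1 by 0.68 (adjusted p = 0.036). LHCB5 and PSAF rest on few root counts, 7 and 16 over the 3 water libraries. Without the 2 root libraries richest in antenna counts 1 of 4 genes was called at 2 h and 5 at 3 h.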

How the results depend on the processing

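The counts of members called are given here by setting; members fell in shoot and rose in root unless stated, and the causes were not tested. In shoot at 1 h and from 1 to 2 h, 0 members were called under every alternative. In shoot at 2 h (4 called), the count was 1 with only the 2 groups compared, 2 in the joint fit and 1 without the shallowest library, when the gene was LHCB1.1 and rose. In shoot at 3 h (17), it was 9 with a term for the digit of the library code, 30 (29 fell, LHCB1.1 rose) with only the 2 groups compared, 10 in the joint fit and 27 without the shallowest library; the median stayed negative in all 17 fits, from -0.47 to -0.26. From 1 to 3 h (1), it was 0 with no filter, 0 with the replicate block, 3 with the digit, 4 with the 2 groups, 0 in the joint fit and 3 without the shallowest library, and from 2 to 3 h (0) it was 2 with the digit and 1 without the shallowest library. Root at 1, 2 and 3 h (3, 3 and 4) gave 0, 0 and 0 with the digit; without both libraries richest in antenna counts root gave 0 at 2 h and 2 at 3 h, and in the joint fit 9 at 3 h (8 rose, 1 fell). LHCB2.3 also fell in root at 1 h with only the 2 groups compared and in the joint fit, and at 3 h by DESeq2. The difference between organs (1, 4 and 9) gave 4 at 1 h by DESeq2, 0, 1 and 1 with the digit, and 1 at 2 h and 5 at 3 h without both root libraries; with the digit that of LHCB5 at 3 h was -1.07 (adjusted p = 0.83).

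Leaving out 1 library at a time gave 0 to 6 members in shoot at 2 h (without PEG 2 h replicate 2, 1 rose), 7 to 20 at 3 h, 0 to 4 from 1 to 3 h and 0 to 1 from 2 to 3 h. In root it gave 0 to 2, 0 to 4 (without PEG 2 h replicate 3, LHCB6 fell and was the 1 called) and 0 to 6 (LHCB4.3 fell without water replicate 2, and LHCB2.3 without PEG 3 h replicate 3), and for the difference between organs 0 to 2, 1 to 5 and 4 to 13 (without root PEG 3 h replicate 3, LHCB2.3 was lower in root). Same-numbered libraries did not deviate together throughout. Their correlations were -0.432 to 0.469 in shoot, with 3 of 18 over 0.1, and -0.33 to 0.309 in root, with 6 of 18. Between organs they were -0.329 to 0.179, with 2 of 12 over 0.1. The numbers were therefore not taken as pairs, although libraries of different numbers were not compared in this way. Apart from the comparison from 1 to 3 h, the replicate block moved no count of members beyond 1.5 times. A block for root and shoot libraries of the same group and number gave 1, 3 and 7 members for the difference between organs. The shallow shoot library and root levels of few counts limit what could be detected.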

Other observations

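PSAN, ATPC1 and FNR2 were singled out after their values were seen. Over the 12 shoot libraries, with the group means taken out, the log2 level of ATPC1 correlated above 0.9 with that of 22 of 4098 genes above 30 CPM. PSAN was the only other member among them (0.934), and the highest were SHM1 (0.98), a mitochondrial hydroxymethyltransferase of photorespiration, FAD7 (0.972), a plastid fatty acid desaturase, and FIB4 (0.972), a plastoglobule protein. The libraries are shared by all these values, so this is a description, and its cause was not tested.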
